A study of Mus musculus with 22 samples.

Results

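The step from embryonic day 16 (E16) to E18 in the mouse lung was described by setting the E18 pool of lung RNA against the E16 pool. Genes were chosen by a rule of size. On either chip of the array set, probe sets whose higher signal of the 2 ages lay above the chip median were kept, and a gene entered when its E18 and E16 signals were at least 2-fold apart. This gave 607 genes out of 3843 that passed the signal rule and 6117 named on the chips. Of the 607 genes, 359 were higher at E18 (9.34% of the genes tested) and 248 were lower (6.45%). Each gene was then followed to postnatal day 1 (P1) and P4. It was called kept where both ages still held at least 50% of its log2 difference from E16 on the E18 side, reverted where neither did, and mixed otherwise.

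In these days the mouse lung passes from the canalicular to the saccular stage. The branched epithelial tubes widen into thin-walled sacs, cuboidal progenitors give rise to flat type I cells, across which gas is exchanged, and to type II cells, which make surfactant, and capillaries come to lie against them. Surfactant is a film of phospholipid and proteins that lowers surface tension, and birth before it is made leads to respiratory distress. Circulating glucocorticoid of the fetus is known to speed this maturation, and the proliferation of the branching stage slows.

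The lungs came from untreated normal mice of the outbred Swiss Webster stock and were taken whole at 11 ages: the embryonic days E12, E14, E16 and E18, the adult, and 6 postnatal days between P1 and P21. Each age is 1 pool of RNA from at least 3 lungs, hybridised once to an Affymetrix Mu11K set of 2 oligonucleotide chips, here chip A and chip B, so E18 and E16 are 1 value each and their difference has no error and no test. Lungs of E18 and of every later age were extracted one by one and their RNA pooled afterwards, whereas lungs of E12, E14 and E16 were pooled before extraction. This change of preparation falls exactly between the E18 and E16 pools and between all later and all earlier ages, and it cannot be told apart from age. The sex of the lungs in a pool is not given in the labels.

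Values are deposited signal intensities in array units, scaled by the authors to nearly the same mean on each array of a chip. A floor was set at the 25th percentile of all signals of a chip, at 72.3 for chip A and 47.3 for chip B, and lower signals were raised to it before log2 was taken. Where one side of a comparison lay under the floor, the fold is written as at least that size. The signal printed is as deposited. Levels of different genes come from different probes and are not comparable with each other.

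The E18 and E16 arrays stood further apart than any other neighbouring ages. By the same rule 15.8% of genes were at least 2-fold apart here, against 8.74% between P1 and E18, 7.20% between E16 and E14 and between 2.98% and 6.56% in the other steps. Over probe sets of chip A, log2 signals of E18 correlated with those of E16 at r = 0.83 and with those of P1 at r = 0.92, and those of E16 correlated with E14 at r = 0.93. These correlations are descriptions across probe sets of single arrays. The median difference over all genes was 0.06 on the log2 scale. Among higher genes 65 were at least 4-fold apart and the median difference was 1.41, and among lower genes 30 were and the median was -1.33. Just inside the limit stood Slc6a9, with 3776 at E18, against 1887 at E16, and Mrpl18, with 249 at E18, against 498 at E16. Just outside it stood Notch4, with 303 at E18, against 152 at E16, and Pim2, with 108 at E18, against 215 at E16.

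**Figure D1:**
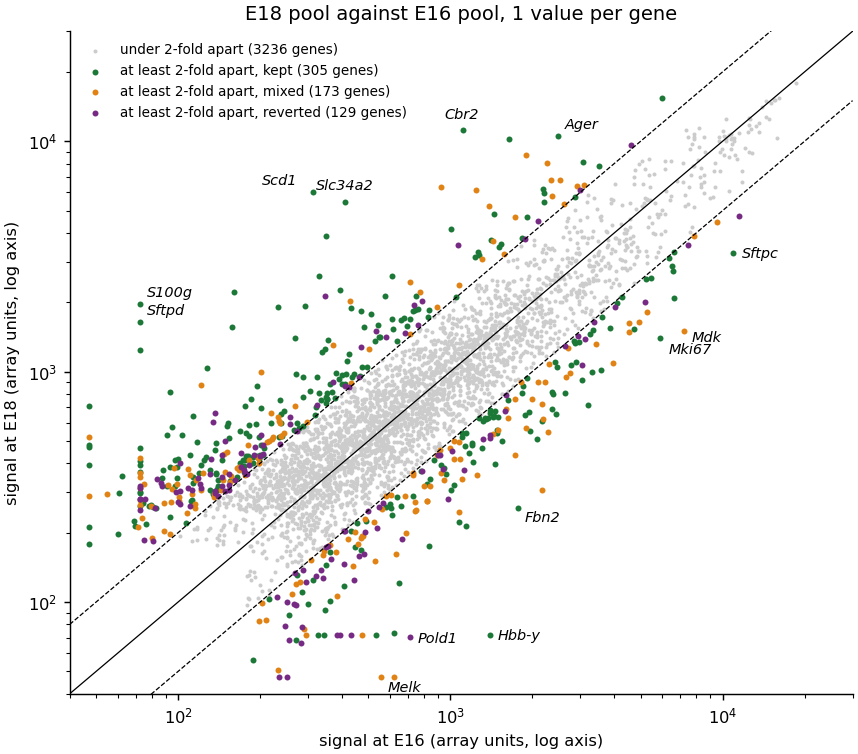
Signal of each of the 3843 genes at E18 (vertical log axis, array units) against its signal at E16 (horizontal log axis). The solid line marks equal signals, dashed lines mark 2-fold, and colours give whether P1 and P4 kept the difference. Points stacked at the left or lower edge lie at the floor. The 359 higher genes lie above the upper dashed line and the 248 lower genes under the lower one.

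A gene's value was checked where another probe set of it also passed the signal rule. Of 90 such genes among the 607, 83 differed in the same direction in the other probe set (92.2%), 54 were also at least 2-fold apart there, and 0 were 2-fold apart the other way. Over all 602 genes with another probe set the direction matched in 78.2%. Where the other probe set was on the other chip, and so on another array, 34 of 36 matched. Both probe sets still read the same pool of RNA, so this shows the agreement of probes and not of lungs.

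Most measured genes of the surfactant-producing type II cell were higher at E18. Of 15 measured genes of that list 11 were at least 2-fold higher at E18, 1 was lower, and their median difference was 1.54, against 0.06 over all genes. Here and below, list counts take only genes that passed the signal rule, in this list 15 of 16 on the chips. A gene could pass through its signal at 1 of the 2 ages alone. List shares and medians thus describe the passing genes and not whole lists. Sftpd, which encodes surfactant protein D, a lectin of the air space, had a signal of 1636 at E18, against 61.6 at E16, and was at least 22.6-fold higher. Its E16 signal was under the floor. It had 5636 at P1 and 3736 at P4, both above E18. S100g, a calcium-binding protein, had 1959 at E18, against 30.0 at E16, a difference of at least 27.1-fold.

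Genes of lipid supply were on the same list, though whole-lung RNA does not show which cells held them. Scd1, the desaturase that makes monounsaturated fatty acids, had 6015 at E18, against 312 at E16 (19.3-fold), and 3658 at P1 and 4244 at P4. Cd36, a transporter of fatty acids, had 2209 at E18, against 161 at E16 (13.7-fold), and went up further to 3325 at P1. Lpcat1, which remodels phosphatidylcholine for surfactant, had 2102 at E18, against 1045 at E16, just past 2-fold. The rest of lipid synthesis moved little. Of 16 measured genes of lipid and phosphatidylcholine synthesis 3 were at least 2-fold higher and 0 lower, with a median of 0.48. Fatty acid synthase, Fasn, differed by 0.56 on the log2 scale, and Pcyt1a, which controls the rate of phosphatidylcholine synthesis, by 0.70.

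Slc34a2, the phosphate transporter of the type II cell's apical membrane, had 5436 at E18, against 409 at E16 (13.3-fold), and stayed between 3872 and 6172 at every later age. Lyz2, lysozyme of type II cells and macrophages, had 10213 at E18, against 1647 at E16 (6.20-fold). Muc1, an epithelial mucin, had 1364 at E18, against 527 at E16. Ctsh, a cathepsin that trims the surfactant protein precursors, had 6816 at E18, against 2345 at E16. It fell back to 2741 at P4, under 50% of its difference. Of the 11 higher genes 8 were kept, 3 were mixed and 0 reverted.

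Sftpc, the surfactant protein C gene that marks distal epithelium, went the other way. Its single probe set had 3274 at E18, against 10931 at E16, and was 3.34-fold lower. E16 was its highest age: the signal was 1437 at E12 and 2515 at E14, and of the later ages P21 alone came near, at 10058, with 630 in the adult. Since E12 and E14 were below E18, the difference rests on the E16 array, and no further probe set of the gene was there to check it. The surfactant genes Sftpa1 and Sftpb and the type I cell gene Aqp5 were not analysed here.

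Type I cell genes were higher at E18 in 6 of the 8 measured, with 1 lower and a median of 1.37. Ager, the receptor for advanced glycation end products and a marker of type I cells, had 10546 at E18, against 2477 at E16 (4.26-fold), and 102 at E14. Its signal then lay between 8153 and 10231 at all later ages, so its E18 signal was already near that of the adult. Pdpn, the podoplanin of the flat cell's surface, had 1198 at E18, against 425 at E16. Vegfa, by which type I cells signal to capillaries, had 596 at E18, against 219 at E16, and 1376 at P1. All 6 were kept. Igfbp2, a carrier of insulin-like growth factors listed with type I cells, had 341 at E18, against 1107 at E16, and was back at 938 at P4.

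Airway secretion genes had the highest list median, 1.91, with 9 of 11 measured genes at least 2-fold higher and 1 lower. Of 17 genes of this list on the chips 6 did not pass the signal rule. Some members, Cyp2f2 and Lcn2 among them, passed through their E18 signal alone. Cyp2f2, a cytochrome P450 of the club cell, had 1904 at E18, against 233 at E16 (8.16-fold), and climbed to 9963 in the adult. Cbr2, a carbonyl reductase of club cells, had 11202 at E18, against 1109 at E16 (10.1-fold). Scgb1a1, the secretoglobin that defines the club cell, had 5234 at E18, against 1391 at E16. These values come from chip B (3.76-fold). On chip B, Scgb1a1 had its lowest signal at E16, with 1798 at E12 and 2251 at E14. The signal there was 2380 at P1 and 2178 in the adult, both far below E18. Its probe set on chip A had 7974 at E18, against 331 at E16, a log2 difference of 4.59 where chip B gave 1.91. On chip A the signal was 296 at E12, 1150 at E14, 6804 at P1 and 630 in the adult. Both probe sets were higher at E18, and they disagree on the size.

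The acute-phase genes of this list moved with them. Hp, haptoglobin, had 3887 at E18, against 348 at E16 (11.2-fold), and Lcn2, lipocalin 2, had 817 at E18, against 93.5 at E16 (8.73-fold), and both were higher still at P1. Aldh1a7, an aldehyde dehydrogenase, was the lower one, with 999 at E18, against 3300 at E16. Lcn2 is also a neutrophil granule gene, and 8 of 12 measured neutrophil genes were at least 2-fold higher, among them S100a9 with 367 at E18, against 17.4 at E16. The list's summed signal was 8808 at E18 and 4238 at E16. The part of blood cells in the airway values was not tested. In whole-lung RNA, more cells of a type and more RNA per cell cannot be told apart, for these genes and for every cell type named here.

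Promoter windows are shown for Slc34a2 and Lcn2, 2 of the higher epithelial genes with a match to TTGCNNAA, a short form of the site of C/EBP factors, which are known to drive secretory genes of lung epithelium. They come from RefSeq on GRCm38.p6 and run from 250 bases before a gene's start to 50 after it. Slc34a2 lies at chr5:53049103-53049402 on the plus strand and Lcn2 at chr2:32387690-32387989 on the minus strand. Capitals mark the matches on either strand.
Slc34a2: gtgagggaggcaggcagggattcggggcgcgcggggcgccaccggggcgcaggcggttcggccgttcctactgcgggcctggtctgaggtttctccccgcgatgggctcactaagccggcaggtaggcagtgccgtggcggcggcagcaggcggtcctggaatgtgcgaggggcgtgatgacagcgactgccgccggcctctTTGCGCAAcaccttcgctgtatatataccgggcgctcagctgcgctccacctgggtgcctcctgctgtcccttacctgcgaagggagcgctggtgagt
Lcn2: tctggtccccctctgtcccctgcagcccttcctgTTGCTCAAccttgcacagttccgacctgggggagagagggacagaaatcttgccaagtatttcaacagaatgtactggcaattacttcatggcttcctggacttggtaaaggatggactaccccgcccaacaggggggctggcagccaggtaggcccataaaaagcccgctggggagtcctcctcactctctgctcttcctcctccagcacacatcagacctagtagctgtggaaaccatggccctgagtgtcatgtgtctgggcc
Of the 359 higher genes 271 had a window in the table. TTGCNNAA occurred in 12.2% of these, in 5.19% of the windows of the lower genes, in 8.75% of those of all genes that passed, and in 10.8% of all windows. Among the 18 higher genes of the surfactant, type I and airway lists with a window, 5 held it (27.8%). The letters are a description of these windows and say nothing of binding. Cebpd, one of the C/EBP factors, itself had 3556 at E18, against 1070 at E16, and was back at 1006 at P1 and 930 at P4.

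**Figure D2:**
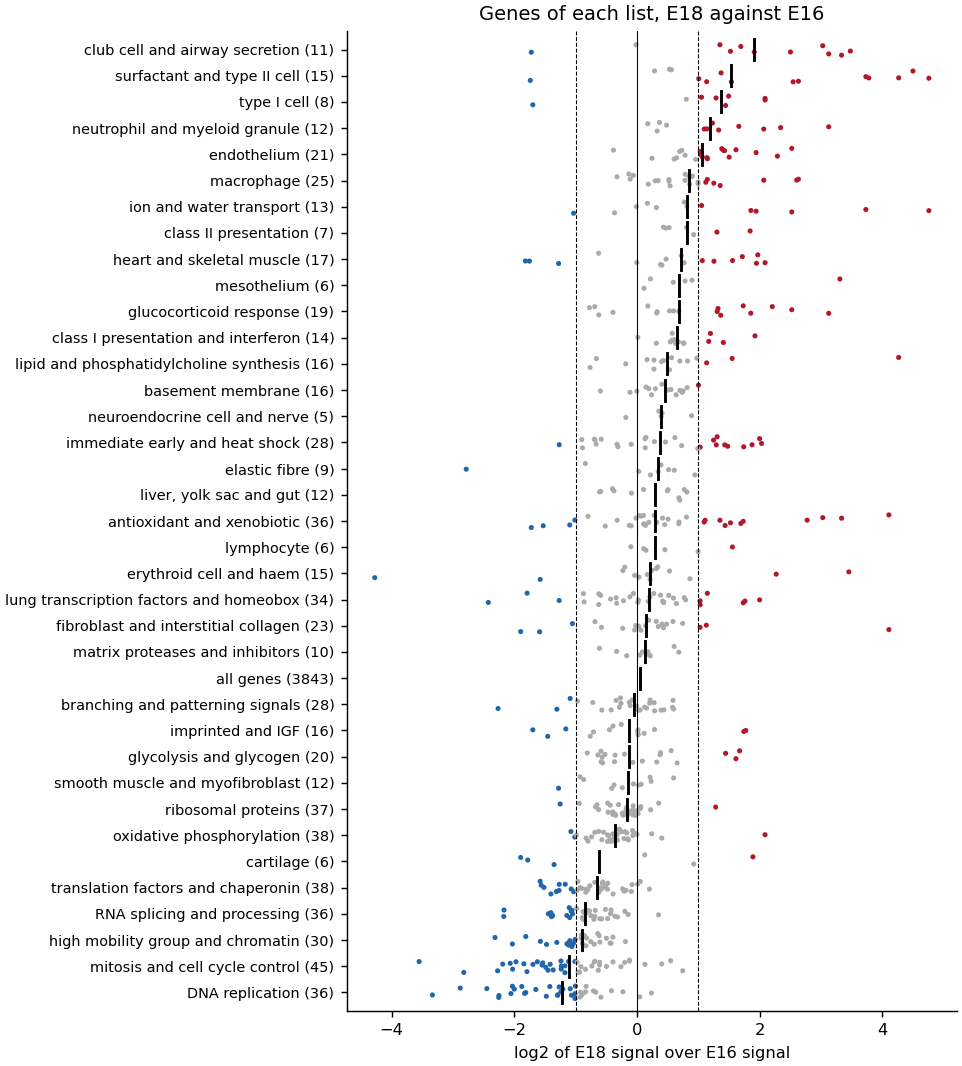
Log2 of E18 over E16 signal (horizontal axis) for each gene that passed the signal rule, by gene list with at least 5 such genes (number in brackets). Red points are at least 2-fold higher at E18, blue points at least 2-fold lower, black bars are list medians, and the line for all genes shows its median alone. Medians run from 1.91 for airway secretion to -1.22 for DNA replication.

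In the list of ion and water transport 6 of 13 genes were at least 2-fold higher and 1 lower, with a median of 0.81. The higher ones included S100g and Slc34a2, counted above with type II cells, and Car4, a carbonic anhydrase. Aqp1, the water channel of capillary endothelium, had 2258 at E18, against 393 at E16 (5.75-fold). Atp1b1, the beta subunit of the sodium pump, had 9603 at E18, against 4624 at E16, and was back at 3073 at P4. Fxyd5, a regulator of that pump, had 1221 at E18, against 337 at E16. Fxyd3, another member of its family, had 357 at E18, against 731 at E16.

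Endothelial genes were higher by moderate amounts. Of 21 measured 13 were at least 2-fold higher, 0 were 2-fold lower, 20 were higher by any amount, and the median was 1.07. Car4, the carbonic anhydrase of lung capillaries, had 582 at E18, against 152 at E16 (3.84-fold), and kept climbing to 1977 at P14. Ptprb, a phosphatase of endothelial junctions, had 592 at E18, against 194 at E16, and 1089 at P1. Gja5, a connexin of arterial endothelium, had 298 at E18, against 60.9 at E16, and peaked at 756 at P1. Epas1, a hypoxia-regulated transcription factor, had 361 at E18, against 138 at E16. General endothelial genes differed less: Pecam1 by 0.96, Cdh5 by 0.78 and Kdr by 0.73 on the log2 scale. Of the 13 higher genes 11 were kept and 1, Sparcl1, reverted.

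Mesenchyme and matrix showed no common shift. In the fibroblast and interstitial collagen list 3 of 23 genes were higher, 3 were lower, and the median was 0.14, with Col1a1 at -0.02 and Col3a1 at -0.04. Inmt, a methyltransferase of lung fibroblasts, was an exception, with 1247 at E18, against 43.8 at E16, at least 17.2-fold higher. It dropped to 362 at P4 and reached 8089 in the adult. Tcf21, a transcription factor of lung mesenchyme, had 5358 at E18, against 2624 at E16. Dcn, decorin, had 374 at E18, against 1125 at E16, and was back at 1013 at P1. Fbn2, the fibrillin of developing elastic fibres, had 256 at E18, against 1765 at E16 (6.89-fold lower), and 28.1 in the adult. Acta2, smooth muscle actin, had 4723 at E18, against 11456 at E16, and was back at 8206 at P1. It was the only one of 12 smooth muscle genes past 2-fold.

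Signals of branching and patterning stayed near their E16 level, with 0 of 28 genes higher, 3 lower and a median of -0.04. Shh differed by -0.11, Bmp4 by -0.27 and Fgfr2 by 0.05 on the log2 scale. Mdk, the heparin-binding growth factor midkine, had 1503 at E18, against 7223 at E16 (4.81-fold lower). It had 1162 at P1 and then 4154 at P4, and 481 in the adult. Tgfb3, a growth factor of the TGF-beta family, had 130 at E18, against 322 at E16, and E18 was its lowest age. Among 34 transcription factors 6 were higher and 3 lower. Klf4 had 707 at E18, against 177 at E16, and 1873 at P1. Mycn, a factor of proliferating lung epithelium, had 118 at E18, against 408 at E16, and Prrx2, a homeobox gene of mesenchyme, 121 at E18, against 648 at E16. Nkx2-1, which specifies lung epithelium, lay near the chip median, with 82.4 at E18, against 199 at E16, and 283 at P1. Its signal was below E18 at E12, E14, P4, P7, P10 and P14, between 51.4 and 75.4.

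Genes of DNA replication and mitosis were the largest group of lower genes among the lists compared. Of 36 measured replication genes 24 were at least 2-fold lower, 0 were higher, and the median was -1.22. Of 45 measured genes of mitosis and cell cycle control 24 were lower, 0 were higher, and the median was -1.12. Together the lists gave 81 measured genes, of which 75 were lower by any amount, and 48 of the 248 lower genes. Mki67, the Ki-67 antigen of cycling cells, had 1405 at E18, against 5890 at E16 (4.19-fold lower). Top2a, the topoisomerase that untangles replicated DNA, had 433 at E18, against 1733 at E16 (4.00-fold lower). Melk, a mitotic kinase, had 23.7 at E18, against 555 at E16, and was at least 11.7-fold lower. Mcm10 and Mcm3, which take part in opening the replication origin, had 58.5 and 398 at E18, against 533 and 1461 at E16. Cdk4, the kinase of the G1 phase, had 1533 at E18, against 4726 at E16.

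This group did not stay down evenly. The mitosis list was lower still at P1, and both lists were nearer their E16 level at P4. The mitosis list's median difference from E16 was -1.12 at E18, -1.42 at P1 and -0.68 at P4, and the replication list's was -1.22, -0.99 and -0.54. Mki67 had 767 at P1 and 2841 at P4, and Top2a 244 at P1 and 882 at P4. Among all lower genes 64 still held at least 50% of their difference at P1 but not at P4, and 21 of the 64 belonged to these lists, including Pcna, Cdk1, Rrm2 and Anln. Of the 24 lower replication genes 11 were kept at both P1 and P4, 9 were mixed and 4 reverted. Of the 24 lower mitosis genes 11 were kept, 12 were mixed and 1 reverted. Mcm10 was among the kept genes and stayed under the floor at P1 and P4. Pold1, the catalytic subunit of DNA polymerase delta, had 70.5 at E18, against 712 at E16, and 238 at P1. The cell-cycle inhibitors Cdkn1a, Cdkn1b and Cdkn1c differed by 0.40, 0.55 and -0.39 on the log2 scale, all under 2-fold.

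Promoters of lower cell-cycle genes are shown for Top2a, Mki67 and Mcm3, since the group shares letters there. CCAAT is the box bound by NF-Y, TTTGAA is the cell cycle homology region, and TTTGGCGC, TTTCCCGC and TTTCGCGC are forms of the E2F site. All were searched on both strands. Top2a lies at chr11:99024140-99024439, Mki67 at chr7:135716330-135716629 and Mcm3 at chr1:20820263-20820562, all on the minus strand of GRCm38.p6. Capitals mark every match to any of these motifs.
Top2a: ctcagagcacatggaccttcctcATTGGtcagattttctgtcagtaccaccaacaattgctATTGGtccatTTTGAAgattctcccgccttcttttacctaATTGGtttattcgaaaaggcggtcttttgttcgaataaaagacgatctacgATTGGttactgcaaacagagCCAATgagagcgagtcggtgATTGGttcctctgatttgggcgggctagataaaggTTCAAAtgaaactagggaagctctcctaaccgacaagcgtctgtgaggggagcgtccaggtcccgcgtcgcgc
Mki67: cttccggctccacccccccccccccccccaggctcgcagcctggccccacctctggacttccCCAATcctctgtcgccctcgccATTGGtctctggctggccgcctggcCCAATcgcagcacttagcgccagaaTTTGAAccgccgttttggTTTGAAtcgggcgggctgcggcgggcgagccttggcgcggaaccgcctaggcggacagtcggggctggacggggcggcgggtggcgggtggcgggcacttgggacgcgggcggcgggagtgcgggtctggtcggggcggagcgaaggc
Mcm3: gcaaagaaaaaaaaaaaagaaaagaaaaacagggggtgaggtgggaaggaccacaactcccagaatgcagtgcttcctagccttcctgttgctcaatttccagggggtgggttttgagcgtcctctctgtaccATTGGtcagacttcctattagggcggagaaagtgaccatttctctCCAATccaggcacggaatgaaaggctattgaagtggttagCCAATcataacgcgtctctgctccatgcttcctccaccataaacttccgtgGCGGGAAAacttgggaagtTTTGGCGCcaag
Top2a held 6 CCAAT boxes and 2 homology regions, Mki67 3 and 2, and Mcm3 held 3 CCAAT boxes and 2 E2F sites. Of 42 lower cell-cycle genes with a window 28 held CCAAT (66.7%), against 106 of the 212 lower genes with a window, 34.7% of the higher genes, 38.0% of all genes that passed and 37.9% of all windows. TTTGAA stood in 38.1% of the cell-cycle windows, 12.4% of those of all genes that passed and 18.1% of all windows. An E2F form stood in 21.4% of the cell-cycle windows, in 12.7% of the lower and 0.738% of the higher genes' windows, in 4.02% of those of all genes that passed and in 1.91% of all windows. The lists are of cell-cycle genes, in which these motifs are known to be common, whatever a gene did at E18.

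Other genes of growth were lower alongside. In the high mobility group and chromatin list 13 of 30 genes were at least 2-fold lower, 0 were higher by any amount, and the median was -0.90. Dnmt1, the maintenance DNA methyltransferase, had 511 at E18, against 2087 at E16, and Ezh2, the Polycomb methyltransferase, 275 at E18, against 818 at E16. In RNA splicing and processing 13 of 36 were lower and 0 higher, with a median of -0.85, led by the nucleolar proteins Fbl, with 714 at E18, against 3212 at E16, and Nop56, with 59.1 at E18, against 326 at E16. Translation factors and chaperonin subunits gave 10 of 38 lower and 0 higher, median -0.66. Ribosomal proteins themselves gave 1 lower and 1 higher of 37 and a median of -0.16, and oxidative phosphorylation 2 lower and 1 higher of 38, median -0.35. Phgdh, the first enzyme of serine synthesis, had 213 at E18, against 1147 at E16, and Mthfd2, which feeds serine carbon into nucleotides, 45.8 at E18, against 430 at E16.

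Defence and stress genes were higher in part. Of 25 macrophage genes 7 were at least 2-fold higher and 0 lower, the median was 0.85, and the summed signal was 31661 at E18 and 15276 at E16. Mpeg1, a pore-forming protein of macrophages, had 577 at E18, against 94.9 at E16, while Csf1r differed by -0.11 and the complement genes C1qa and C1qb by -0.33 and -0.13. In the class II list, Cd74, the invariant chain, had 974 at E18, against 271 at E16, and 10080 at P14, and 2 of 7 genes passed 2-fold. In the antioxidant and xenobiotic list 11 of 36 genes were higher and 4 lower, median 0.30. Sod3, the extracellular superoxide dismutase, had 264 at E18, against 79.4 at E16, and 3392 in the adult. On its other probe set it had 201 at E18, against 133 at E16, under 2-fold. Prdx4, a peroxiredoxin of the endoplasmic reticulum, had 819 at E18, against 2362 at E16. Of 28 immediate early and heat shock genes 10 were higher and 1 lower, and Fos had 415 at E18, against 124 at E16, and 1851 at P1. Another Fos probe set failed the signal rule and went the other way, with 23.7 at E18, under the floor, against 108 at E16. The interval from death to extraction is not given in the labels.

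Of 19 glucocorticoid-responsive genes 8 were at least 2-fold higher and 0 lower, with a median of 0.68 at E18, 0.52 at P1 and 0.11 at P4. Hsd11b1, the enzyme that makes active glucocorticoid in the tissue, had 8717 at E18, against 1889 at E16 (4.61-fold), 5057 at P1 and 2791 at P4, and 10277 at P14. Zbtb16 and Errfi1 were also higher, by 1.37 and 1.32 on the log2 scale, whereas the classical targets Fkbp5 and Per1 differed by 0.68 and 0.53. Lcn2 and Aqp1 belong to this list as well as to those above.

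Markers of tissues next to the lung moved too. In the heart and skeletal muscle list 7 of 17 measured genes were higher and 3 lower, and the summed signal was 22823 at E18 and 13532 at E16. The higher genes included the heart genes Myh6, with 951 at E18, against 323 at E16, and Tnnt2, with 435 at E18, against 111 at E16. The lower ones were Acta1, Myh3 and Myh8, genes of skeletal muscle. Heart muscle also surrounds pulmonary veins in the mouse. Msln, mesothelin of the lung's outer lining, had 1569 at E18, against 158 at E16 (9.91-fold), while Upk3b, Wt1 and Krt19, other mesothelial markers, differed by 0.59, 0.79 and 0.90 on the log2 scale. Of 6 measured cartilage genes 3 were lower and 1 higher, with a summed signal of 3325 at E18 and 6698 at E16. The fall of the sum rests on Fmod, with 655 at E18, against 2437 at E16, and Mia, with 687, against 2362. Fmod is on the fibroblast list too. Col9a3 was the third lower gene. Acan, the higher one, had 279 at E18, against 75.3 at E16. Col2a1, Col11a1 and Matn1 did not pass the signal rule. None of 12 liver, yolk sac and gut genes passed 2-fold. The part of adjoining tissue in these values was not tested.

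Among red cell genes the embryonic globins were lower. Hbb-y, an embryonic beta globin, had 38.7 at E18, against 1400 at E16 and 11093 at E14, and was at least 19.4-fold lower than at E16. Hba-x, the embryonic alpha globin, had 406 at E18, against 1212 at E16. The list's summed signal was 29671 at E18 and 28042 at E16. Hba-a1 was higher, at 518 at E18, against 0.1 at E16, but its probe set also read 0.0 at P4, P7 and P14 and belongs to near-identical genes. Its other probe set had 398 at E18, against 305 at E16, under 2-fold. Xist, the RNA of the inactive X, had 408 at E18, against 25.6 at E16, under the floor, and between 278 and 1198 at every other age. Kdm5d, of the Y chromosome, had 39.3 at E18, under the floor, against 176 at E16, its highest age, which missed the chip median of the signal rule narrowly. Another Y gene, Zfy1, also failed the signal rule and went the other way, with 132 at E18, against 62.5 at E16. Its other probe set was under the floor at both ages. The part of the pools' sex makeup in these values was not tested.

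RNA quality controls differed between the arrays as well. The ratio of the 5′ to the 3′ probe set of Gapdh was 1.21 at E18 and 1.55 at E16 on chip A, and 1.16 at E18 and 1.28 at E16 on chip B. For actin it was 1.54 at E18 and 2.50 at E16 on chip A, where 2.50 was also the median over ages. On chip B it was 2.89 at E18 and 3.45 at E16, within a range of 1.07 to 109 over ages. Their part in the differences was not tested.

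After birth the higher genes kept their level more often than they lost it. Of the 359 higher genes 196 were kept (54.6%), 90 were mixed (25.1%) and 73 reverted (20.3%). Of the 248 lower genes 109 were kept (44.0%), 83 were mixed (33.5%) and 56 reverted (22.6%). The split depends on its definition: by P4 alone 130 higher and 120 lower genes reverted. Of the kept higher genes 73 stood beyond their E18 level at both P1 and P4, and 166 of 196 still held at least 50% of the difference at P14, P21 and in the adult. Of the kept lower genes 98 of 109 did. In 22 of the 305 kept genes, Sftpc, Gjb6 and Calm3 among them, E12 and E14 already stood on the E18 side of E16. Gjb6, a connexin, had 712 at E18, against 38.1 at E16, with 230 at E12 and 245 at E14. These values come from chip B. Its probe set on chip A was also higher at E18, with 293.8, against 74.2 at E16. There E12 and E14 were under the floor, at 47.0 and 71.1, and so not on the E18 side. At P4 that probe set had 114.7, under 50% of its difference.

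**Figure D3:**
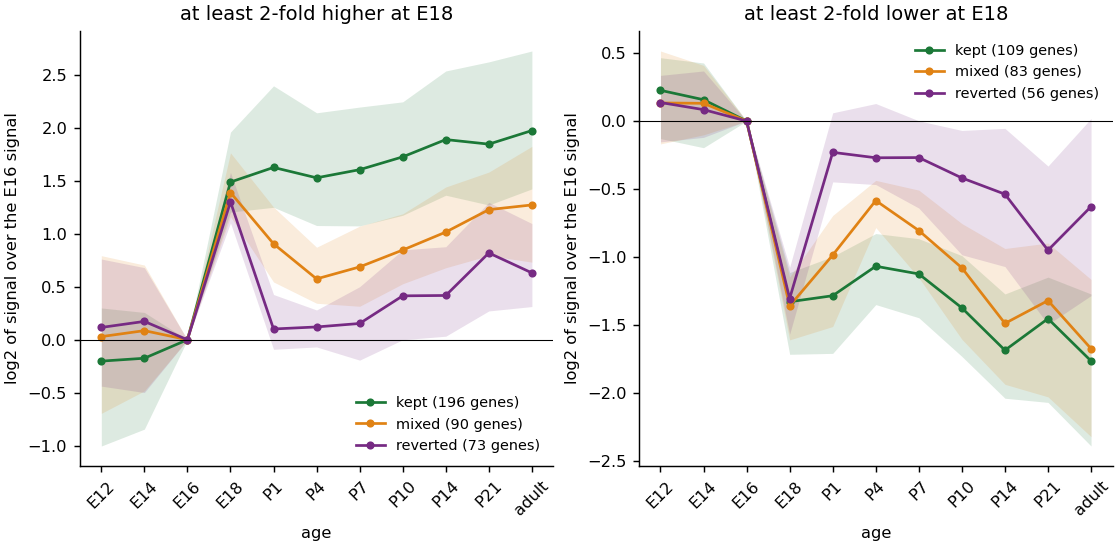
Median log2 signal relative to E16 (vertical axis) at the 11 ages (horizontal axis) for higher genes (left) and lower genes (right), by class. Shaded bands span the middle 50% of genes. P1 and P4 define the classes, so their values there are a description. Kept higher genes go on rising after P4, and mixed lower genes come closest to E16 at P4.

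Reverted genes followed several courses. Of the 73 higher ones 18 held at least 50% of the difference again at all of P14, P21 and adult, 21 held it at none of these ages, and in 14 E12 and E14 already stood on the E18 side. Htr3a, a serotonin-gated channel, had 311 at E18, against 19.9 at E16, but also 213 at E14 and 146.9 at P21, with 23.8 at P1 and 21.2 at P4. Sema6d, a semaphorin, had 48.5 at E18, against 383 at E16, and between 434 and 583 at all later ages. Elf3, an epithelial transcription factor, had 502 at E18, against 148 at E16, and 96.9 at P1. With 1 array at E18, a value found at that age alone cannot be told apart from an error of that array.

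A further course ran through several of these genes. In 50 of the 359 higher genes the difference was under 50% at P4 but back to at least 50% at P14, P21 and in the adult. Gpx3, a secreted glutathione peroxidase, had 925 at E16, 6332 at E18, 1656 at P4, 1293 at P7 and 6206 in the adult. Xdh, xanthine dehydrogenase, had 347 at E16, 2123 at E18, 455 at P4 and 2703 in the adult. Hsd11b1, Cebpd, Pon1, Selenbp1 and Igfbp6 were also among the 50. They include enzymes that handle oxidants and steroids.

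**Figure D4:**
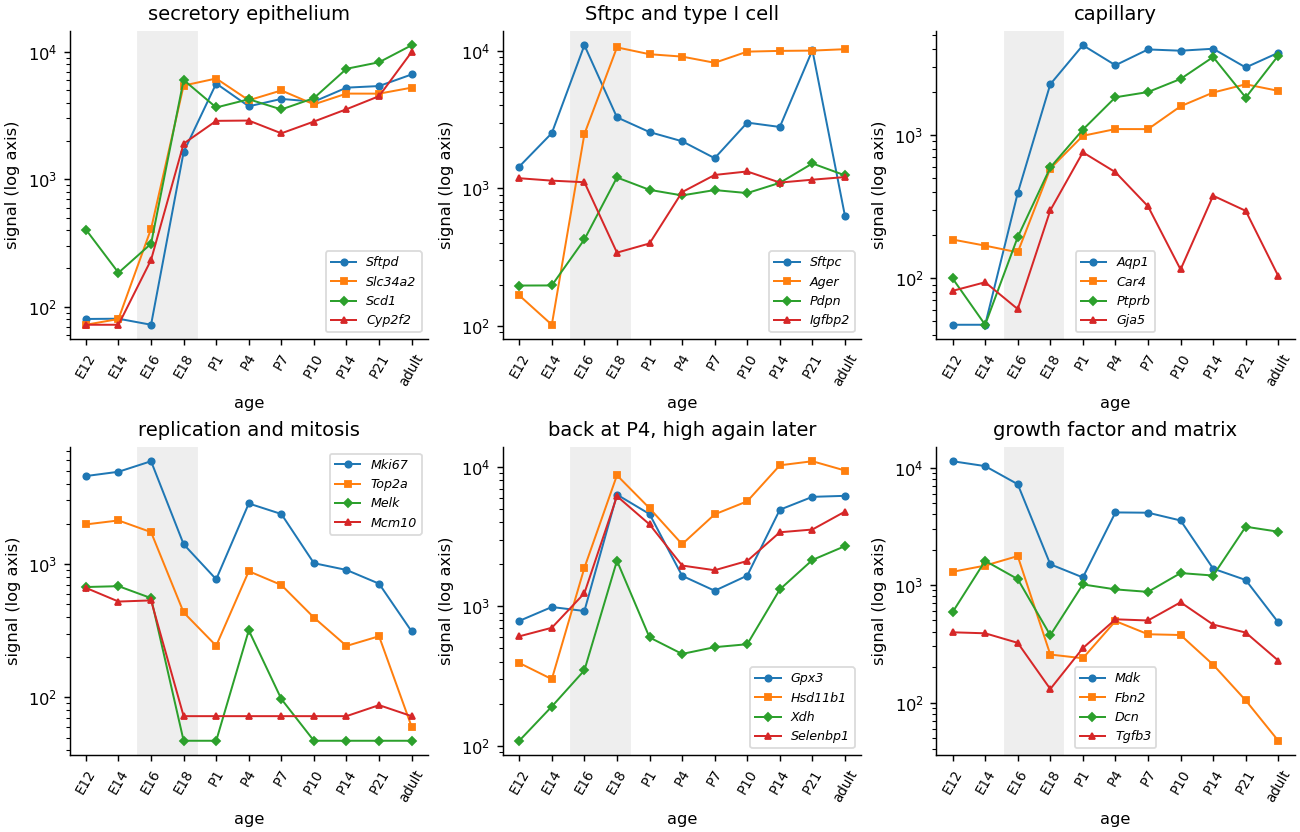
Signals of named genes (vertical log axis, array units, raised to the floor) at the 11 ages (horizontal axis), by group, with the E16 and E18 ages shaded. Sftpc peaks at E16 while Ager at E18 is near its adult signal, Mki67 and Top2a dip at P1 and stand higher at P4, and Gpx3 and Hsd11b1 are high at E18 and again from P14.

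The direction of the step was set against ages that its rule did not use. A limma fit compared the 7 postnatal ages with E12 and E14, leaving out the E18 and E16 arrays, with Benjamini-Hochberg adjustment over all 3843 genes. It called 885 genes higher (23.0%) and 812 lower (21.1%) after birth. Of the 359 genes higher at E18, 225 were called higher (62.7%) and 7 lower. Of the 248 genes lower at E18, 186 were called lower and 4 higher. Without regard to the test, 83.8% of the higher genes had a positive difference, against 49.6% of all genes, and 89.9% of the lower genes a negative one, against 50.4%. Ages of a group are not replicates of each other, so these p-values measure the scatter of ages. Where signals of several ages were raised to the floor, that scatter is understated. The fit leans on E12 and E14: without E12 it called 174 of the higher and 114 of the lower genes, and without E14 184 and 116.

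Among named genes, Sftpd differed by 5.93 ± 0.21 on the log2 scale (SE, limma adjusted p = 3.12e-08) and Ager by 6.18 ± 0.18 (limma adjusted p = 5.63e-09). Mcm10 differed by -2.98 ± 0.15 (limma adjusted p = 3.11e-07). Its signal lay under the floor at every postnatal age but P21 and was raised to it. The size is therefore a lower limit, and its SE and p-value do not measure the scatter of ages. Sftpc did not pass, with 0.35 ± 0.74 (limma adjusted p = 0.731). Of kept higher genes 169 of 196 were called higher, of mixed ones 39 of 90, and of reverted ones 17 of 73. Kept lower genes were called lower in 97 of 109, mixed in 65 of 83 and reverted in 24 of 56. P1 and P4 are among the 7 postnatal ages, so these counts by class are a description.

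**Figure D5:**
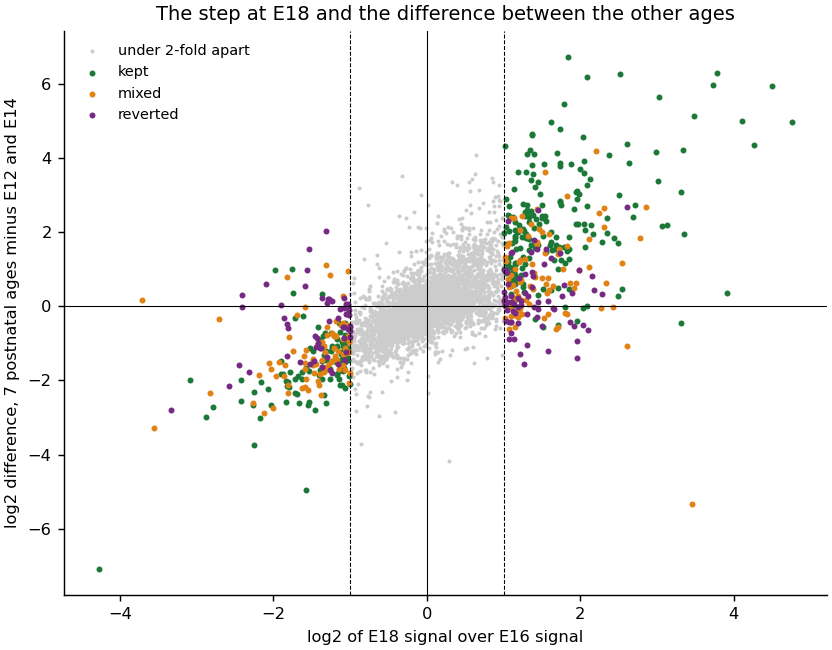
For each gene, the log2 difference between the 7 postnatal ages and E12 and E14 (vertical axis) against log2 of E18 over E16 signal (horizontal axis), with colours for kept, mixed and reverted genes and grey for genes under 2-fold apart. Of the 359 higher genes 301 lie above 0 and of the 248 lower genes 223 lie under 0.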

How the data were processed

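Array signals of 11 lung RNA pools on the 2 chips of a Mu11K set were analysed. The deposited values were signal intensities per probe set, linear and at least 0. Array means after trimming 2% of values lay between 500.1 and 500.2 on chip A and between 498.4 and 498.9 on chip B, so the authors' values were already scaled by array. None of the sources used here gives the step from probe cells to probe set signals. Control probe sets and 1 probe set per chip with missing values were left out, and 13044 were used. Symbols came from the platform annotation, and 5554 of 5554 single symbols on chip A and 1983 of 1986 on chip B were in RefSeq's gene table. Signals under the chip's 25th percentile over all arrays were set to it and log2 was taken, with no further normalisation. A probe set was used where the higher of its E18 and E16 signals lay above the chip median (250.3 on chip A, 176.7 on chip B), and the one with the highest mean stood for a gene.

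E18 against E16 is 1 pool against 1 pool and was not tested. Postnatal ages were compared with E12 and E14 with two-sided tests of limma 3.58.1 (R 4.3.3), and p-values were adjusted by Benjamini and Hochberg's method at a threshold of 0.05. This script and the class rule were tested on simulated data. Scanner settings were not used, and hold no chip lot or scan run. Named genes were the 12 largest higher and lower differences, the 8 largest reverted ones in each direction, the 4 largest of each of 38 gene lists, genes next to the threshold and 7 lung markers. Other genes in the text were chosen after their values were seen. The comparison, the genes and the lists were chosen with earlier results of these data known. Promoter windows came from RefSeq on GRCm38.p6, matched by symbol for 271 higher and 212 lower genes.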

Additional observations from a re-analysis of the deposited data

How the results depend on the processing

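Counts of genes at least 2-fold higher and lower at E18 were 359 and 248. They were 153 and 159 where the higher signal had to pass the 75th percentile, 136 and 98 on chip B alone, 775 and 602 at a 1.5-fold threshold, 136 and 73 at 3-fold, and 682 and 532 with probe sets counted singly, and 162 were lower on chip A alone. Quantile normalisation gave 297 and 278, and floors at the 10th and 40th percentile, centring and the mean of a gene's probe sets stayed within 1.5 times. Of 121 named genes, 45 moved by more than the SD between probe sets of a gene with the mean of E18 and P1 against E16, 39 under the 40th percentile floor, 35 against the mean of E14 and E16 and 17 under the 10th percentile floor. The classes depended on their definition. With 2/3 of the difference as the limit for kept 114 higher genes reverted, 62 lower genes were kept and 91 reverted. Where kept meant at least 2-fold from E16 at both ages, 121 higher genes reverted, 59 lower genes were kept and 111 reverted. By P1 alone 173 lower genes were kept, and by P4 alone 130 higher and 120 lower genes reverted. With the mean of E14 and E16 as the base 175 lower genes were kept. Leaving out 1 age at a time, the postnatal comparison called between 577 and 892 genes higher and between 409 and 822 lower, and between 174 and 225 of the genes higher at E18 and between 114 and 188 of those lower at E18, each lowest without E12. Among the named genes Wee1 alone reversed, at 0.30 where the signal rule was set at the 25th percentile, because another of its probe sets then stood for the gene. A block for chip lot or scan run was not run. Alternatives with probe sets at the floor left out or particular genes left out were chosen after seeing the data. No array has a repeat, so the precision of a single signal is not known.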

Other observations

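Gene groups not described above were also compared between E18 and E16. Of 14 measured class I presentation and interferon genes 4 were at least 2-fold higher at E18 and 0 lower, and all 14 were higher by some amount, with a median of 0.65. A further 15 of the 29 genes of this list on the chips did not pass the signal rule. Among these were the interferon-induced genes Isg15, Ifit1 and Mx1, so the count does not cover the whole list. Tap2, the peptide transporter, had 179 at E18, against 27.8 at E16, and Ly6e, an interferon-induced membrane protein, 8133 at E18, against 3064 at E16. Among 16 imprinted and insulin-like growth factor genes 2 were higher and 3 lower. Igfbp7, a binding protein of vessel walls, had 4836 at E18, against 1445 at E16, and 7687 in the adult, while the imprinted gene Nnat had 543 at E18, against 1487 at E16. The fetal growth factor Igf2 had 3462 at E18, against 5868 at E16, under 2-fold, and H19 had 10666 at E18, against 10519 at E16.

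Of 16 basement membrane genes 1 passed 2-fold. This was Col4a2, a type IV collagen chain, with 5753 at E18, against 2871 at E16, and its partner chain Col4a1 had 8197 at E18, against 5046 at E16. In the glycolysis and glycogen list 3 of 20 genes were higher and 0 lower, with a median of -0.14. The 3 are not enzymes of glycolysis: Fbp2 is an enzyme of gluconeogenesis, and Adm and Vegfa are secreted signalling peptides. None of 10 matrix protease and inhibitor genes and none of 5 neuroendocrine genes passed 2-fold. Foxj1, the regulator of ciliated cells, had 606 at E18, against 327 at E16. Spock2, a matrix proteoglycan, had 1032 at E18, against 128 at E16, and was kept. Prdx1, an abundant peroxiredoxin, had 4475 at E18, against 9570 at E16, and 5954 at P1.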
